A study of Mus musculus with 6 samples.

Results

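The H19 and Igf2 imprinted locus was described through 5 genes of distal mouse chromosome 7, H19, Mir675, Igf2, Tnni2 and Lsp1, of 22099 genes in the deposited expression table. They were the rows of the table that carry these 5 symbols, 8 RefSeq rows in all, which were summed per symbol. The genes were chosen by their measured RPKM in these libraries, chiefly because they stood high in the ZnF4 mutant cultures, so their levels and differences are a description and carry no test.

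Polyadenylated RNA was sequenced from 6 cultures, 2 biological replicates in each of 3 groups. Whole bone marrow of C57BL/6 mice was transduced at day 0 with a retrovirus that carries BCR-ABL p185, an oncogenic fusion kinase, together with the fluorescent protein YFP, and RNA was taken at day 14 of culture from cells labelled as transformed pro-B acute lymphoblastic leukaemia (ALL). The wt group carried normal Ikaros, the ZnF1 mutant group was homozygous for Ikaros ZnF1-/- and the ZnF4 mutant group for Ikaros ZnF4-/-. Ikaros, encoded by Ikzf1, is a lymphoid transcription factor whose N-terminal zinc fingers contact DNA, and the mutants lack the first or the fourth finger. All 3 groups share the oncogene and the culture, so no group serves as an untransformed control. The labels do not say that infected cells were sorted, and the mutant alleles are germ-line alleles present in every marrow cell.

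H19 and Igf2 are a textbook pair of imprinted genes. An imprinting control region between them is bound by the insulator protein CTCF on the unmethylated maternal chromosome, where H19 is transcribed, and is methylated on the paternal chromosome, where Igf2 is transcribed; the genes share enhancers. Both are highly transcribed in the embryo and in fetal liver and are largely silenced after birth. H19 is a long noncoding RNA and the host transcript of the microRNA gene Mir675. Igf2 encodes insulin-like growth factor 2, which signals through the receptors Igf1r and Insr and is cleared by Igf2r. Tnni2, the fast skeletal muscle troponin I, and Lsp1, an actin-binding protein of leukocytes, lie on the other side of H19.

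The hairpin of Mir675 is shown because its row is counted inside H19. By the RefSeq annotation of GRCm38.p6 it lies on the minus strand at chr7:142577064-142577147. In a GENCODE transcript of H19 of 2286 bases it lies in exon 1 of 5 exons, at bases 997 to 1080. The RefSeq row of H19 measured here is another transcript model, of 2616 bases. The hairpin is printed 5′ to 3′ with its mature arms in capitals, and the mature miRNAs follow with their seeds (bases 2 to 8) in capitals.
Mir675 hairpin: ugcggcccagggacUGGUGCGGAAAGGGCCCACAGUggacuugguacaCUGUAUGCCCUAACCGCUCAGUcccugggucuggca
mmu-miR-675-5p: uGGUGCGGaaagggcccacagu
mmu-miR-675-3p: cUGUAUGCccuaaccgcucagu
The arms lie at chr7:142577112-142577133 and chr7:142577078-142577099. The seeds differ from each other, and neither was carried by another of the 1738 mature mouse miRNAs of the RefSeq table.

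A RefSeq promoter was at hand for 1 of the 5 genes, Igf2, with 4 starts on the minus strand. The 250 bases before the second and the fourth start are printed to show how unlike the Igf2 promoters are, with matches of GGGAA, the core bound by Ikaros, in capitals (TTCCC where the match is on the other strand).
Igf2 start 2, chr7:142661272-142661521: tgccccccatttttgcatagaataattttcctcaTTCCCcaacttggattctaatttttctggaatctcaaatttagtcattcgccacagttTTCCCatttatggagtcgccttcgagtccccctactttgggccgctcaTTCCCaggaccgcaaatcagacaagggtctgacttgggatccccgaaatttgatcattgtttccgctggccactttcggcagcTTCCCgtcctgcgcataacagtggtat
Igf2 start 4, chr7:142657497-142657746: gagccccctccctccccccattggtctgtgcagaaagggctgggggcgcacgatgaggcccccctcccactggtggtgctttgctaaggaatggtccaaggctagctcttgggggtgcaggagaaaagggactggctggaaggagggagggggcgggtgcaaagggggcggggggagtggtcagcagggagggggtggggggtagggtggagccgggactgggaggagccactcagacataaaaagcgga
The window of start 2 held 4 matches, all on the other strand, and a GC content of 47.6%. The window of start 4 held 0 matches and a GC content of 66.0%. Start 1 held 1 match and start 3 held 0. Of all 32851 such windows in the table, searched on both strands, 56.2% held at least 1 match and 1.38% held at least 4, so a match by itself is common. A match is a description of letters, not a binding site.

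Values are RPKM, reads scaled to the length of the RefSeq transcript and to the reads of the library, which the authors wrote to 1 decimal. The depth of the libraries is unknown. The RPKM of all genes summed to between 287007 and 345766 per library, and 10582 to 11119 genes reached 1 RPKM. Ikzf1 was present in every library, at 89.2 and 85.9 RPKM in wt, 101.5 and 116.7 in ZnF1 mutant and 188.2 and 170.2 in ZnF4 mutant cells; a value over the whole gene does not check the loss of 1 finger. All 11 pro-B and pre-B markers were at 1 RPKM or more in every library, and their sum ranged from 2379 to 3590 RPKM with overlapping groups. The granulocyte markers stood apart in wt replicate 1 (505.1 RPKM summed over 8 markers) and ZnF1 mutant replicate 2 (1541 RPKM) against 0.5 to 51.7 RPKM in the other 4 libraries, so the results below were also computed without these 2 libraries. Monocyte and macrophage markers were higher in ZnF1 mutant libraries, at 771.7 and 853.6 RPKM summed over 9 markers against 260.8 to 318.8 elsewhere. Stromal markers followed the same order, at 165.8 and 64.3 RPKM over 11 markers against 20.1 to 37.0.

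H19 was among the most abundant transcripts of the ZnF4 mutant cells. It stood at 2369.6 and 2739.0 RPKM in the ZnF4 mutant libraries, at 13.3 and 17.7 in the wt libraries and at 0.4 and 6.8 in the ZnF1 mutant libraries. Counted from the highest, it was in place 3 of 22099 genes in ZnF4 mutant replicate 1 and in place 1 in replicate 2, and made up 0.711% and 0.911% of their summed RPKM. In wt its place was 5372 and 4151, and in ZnF1 mutant cells 11995 and 7265. The 3 groups did not overlap, in the order ZnF4 mutant, wt, ZnF1 mutant.

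The group means of H19 were 2554 ± 261 RPKM in ZnF4 mutant, 15.5 ± 3.11 in wt and 3.6 ± 4.53 in ZnF1 mutant cells (SD, n = 2 each). The ratio of means between ZnF4 mutant and wt was 165. On the scale of log2(RPKM + 1) the difference between ZnF4 mutant and wt was 7.28, against a pooled standard deviation of 0.22 within the groups, and it was 7.37 and 7.19 between the libraries with replicate number 1 and 2. Without the 2 libraries rich in granulocyte transcripts it was 7.09. The lower level in ZnF1 mutant cells was less steady: the difference from wt was -2.31 with a pooled standard deviation of 1.25, -3.35 between the first replicates and -1.26 between the second, and -3.74 without the granulocyte-rich libraries. Both ZnF1 mutant libraries were below both wt libraries all the same.

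**Figure D1:**
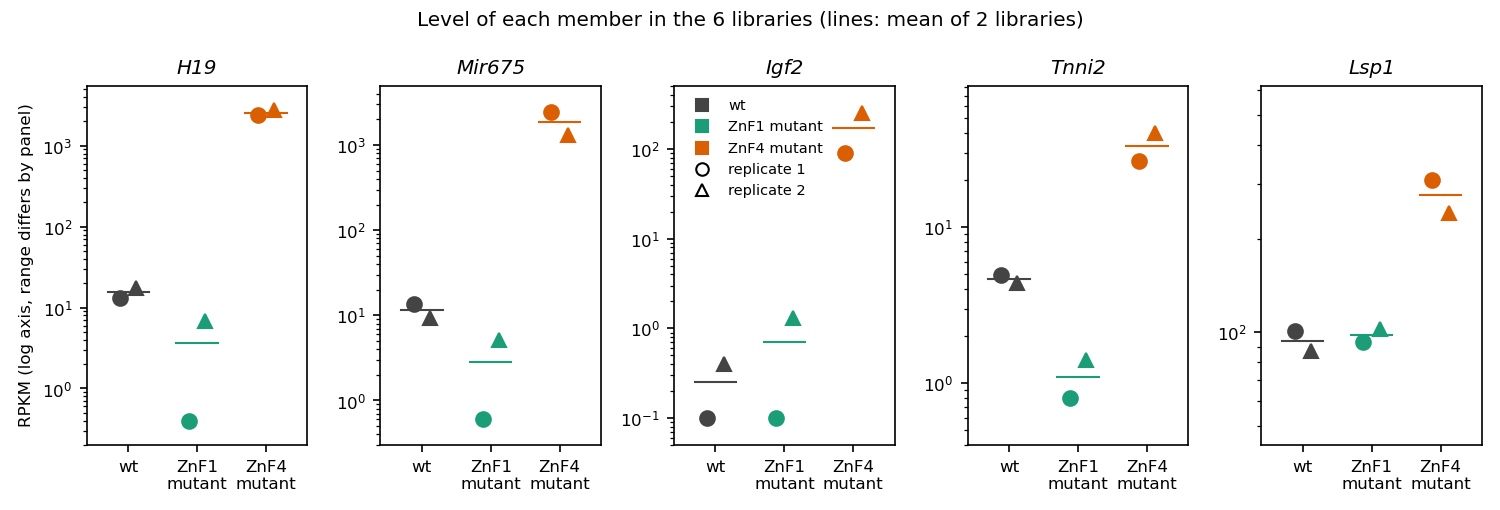
RPKM of H19, Mir675, Igf2, Tnni2 and Lsp1 (log axis whose range differs by panel) in the 6 libraries; colours are the groups, circles and triangles replicates 1 and 2, and lines the group means. In each panel both ZnF4 mutant libraries lie above the other 4, from 2369.6 and 2739.0 against at most 17.7 RPKM for H19 to 241.9 and 309.7 against at most 102.7 RPKM for Lsp1.

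The Mir675 row counts reads over 85 bases inside H19. Libraries of polyadenylated RNA do not hold mature miRNAs, so the row reports the stretch of H19 that holds the hairpin and is no measure of miR-675. The sources used here do not tell how reads shared by overlapping rows were counted, which makes this level uncertain and no separate evidence from that of H19. It was 2467.7 and 1305.5 RPKM in ZnF4 mutant, 13.7 and 9.2 in wt and 0.6 and 5.1 in ZnF1 mutant libraries, a difference of 7.20 (log2) between ZnF4 mutant and wt and of -1.97 between ZnF1 mutant and wt. The groups again did not overlap.

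Because H19 and Mir675 are both scaled per length, their ratio shows how the hairpin stretch was covered relative to the whole transcript. It was 1.03 and 0.52 in wt, 1.5 and 0.75 in ZnF1 mutant and 1.04 and 0.477 in ZnF4 mutant libraries. The value of 1.5 rests on 0.6 RPKM for Mir675 and 0.4 RPKM for H19, close to the rounding, and is uncertain. The replicate 1 library was the higher in each group, while H19 itself went the other way, being lower in each replicate 1 library. Over the 155 rows shorter than 120 bases the median difference between replicates 1 and 2 was 0.20 (log2) in wt, 0.28 in ZnF1 mutant and 0.06 in ZnF4 mutant libraries, beside 0.10, 0.12 and 0.06 over all 12583 rows compared. The part that the replicate number played in the coverage of H19 was not tested.

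**Figure D2:**
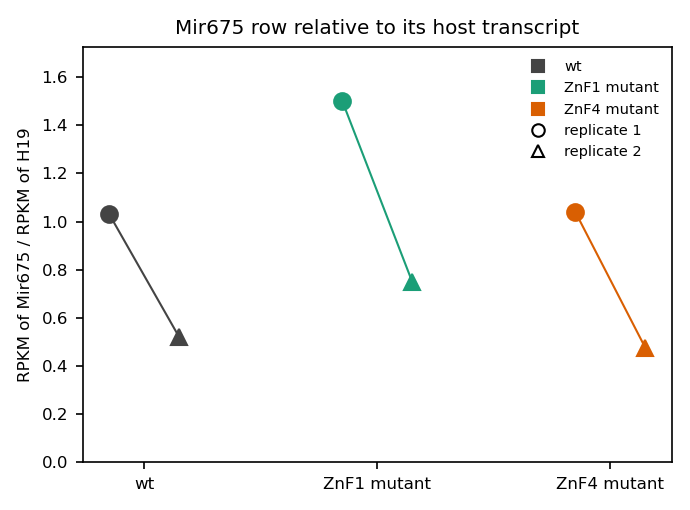
Ratio of the RPKM of the Mir675 row to that of H19 in each of the 6 libraries, by group, with a line joining the 2 libraries of a group. The replicate 1 libraries lie at 1.03, 1.5 and 1.04 and the replicate 2 libraries at 0.52, 0.75 and 0.477. The value of 1.5 rests on 0.6 and 0.4 RPKM, close to the rounding.

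Igf2 was close to the lowest value the table can hold outside the ZnF4 mutant cells. Its level was 0.1 and 0.4 RPKM in wt and 0.1 and 1.3 in ZnF1 mutant libraries, and 90.8 and 253.1 in ZnF4 mutant libraries. The wt and ZnF1 mutant libraries overlapped, and both ZnF4 mutant libraries lay far above them. In ZnF4 mutant libraries Igf2 was in place 668 and 89 of all genes.

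The means of Igf2 were 171.9 ± 115 RPKM in ZnF4 mutant, 0.25 ± 0.212 in wt and 0.7 ± 0.849 in ZnF1 mutant cells (SD, n = 2 each). The difference between ZnF4 mutant and wt was 6.94 (log2), 6.38 between the first and 7.50 between the second replicates. No ratio is given, as wt values of 0.1 to 0.4 RPKM are 1 to 4 steps of the rounding. The ZnF4 mutant libraries differed from each other more in Igf2 (1.47 on the log2 scale) than in H19 (0.21), and the level of Igf2 per length was 3.83% and 9.24% of that of H19. In every group the library with the higher H19 also had the higher Igf2.

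The 3 RefSeq rows of Igf2 overlap over most of their bases, and the reads stood almost wholly in one of them. The row of 3705 bases held 88.8% and 92.5% of the length-weighted signal of Igf2 in the ZnF4 mutant libraries, the row of 4042 bases 10.8% and 7.37%, and the row of 3695 bases 0.327% and 0.117%. The row lengths of the table do not let a row be tied to a start site of the current annotation, so no promoter is named as used. Igf2as, the antisense transcript that overlaps Igf2, was listed at 0 in the 4 wt and ZnF1 mutant libraries and at 4.0 and 8.3 RPKM in the ZnF4 mutant libraries, 4.41% and 3.28% of Igf2. The labels name a protocol for double-stranded cDNA and no use of strand, so reads of Igf2 and of its antisense partner cannot be told apart.

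Tnni2 moved by a smaller step and in both directions. It stood at 26.6 and 40.3 RPKM in ZnF4 mutant, 4.9 and 4.4 in wt and 0.8 and 1.4 in ZnF1 mutant libraries, and the groups did not overlap. The means were 33.45 ± 9.69, 4.65 ± 0.354 and 1.1 ± 0.424 RPKM (SD, n = 2 each). ZnF4 mutant cells were higher than wt by 2.58 (log2; 7.19-fold in the means), and the difference between ZnF1 mutant and wt was -1.44, with pooled standard deviations of 0.30 and 0.22. Tnni2 thus shared with H19 the order ZnF4 mutant, wt, ZnF1 mutant.

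The muscle origin of the name was checked against 13 skeletal muscle markers. Their sum was 5.7 to 7.3 RPKM in all 6 libraries, nearly all of it Mylpf, a myosin light chain gene at 4.7 to 6.6 RPKM, and it was no higher in ZnF4 mutant libraries (6.0 and 5.7). The muscle regulators Myod1 and Myog were listed at 0 throughout. Among the other troponins, Tnni1 was at 0, Tnnc2 at 0.1 to 0.3 RPKM and Tnnt3, the neighbour of Lsp1 and Tnni2 that encodes fast troponin T, at 0.6 and 0.6 RPKM in ZnF4 mutant against 0 to 0.2 in the other libraries.

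Lsp1 was at a high level in every group. It stood at 309.7 and 241.9 RPKM in ZnF4 mutant, 100.7 and 86.8 in wt and 93.2 and 102.7 in ZnF1 mutant libraries. The wt and ZnF1 mutant libraries overlapped, with means of 93.75 ± 9.83 and 97.95 ± 6.72 RPKM, and both ZnF4 mutant libraries were above them, with a mean of 275.8 ± 47.9 RPKM (SD, n = 2 each). The difference between ZnF4 mutant and wt was 1.54 (log2; 2.94-fold), with a pooled standard deviation of 0.21, and that between ZnF1 mutant and wt was 0.06. At least 99.7% of the signal stood in the shorter RefSeq row, of 1414 bases, in each library, and the longer row was at 0 to 0.2 RPKM. In wt Lsp1 exceeded H19, which was at 13.2% and 20.4% of its level per length; in ZnF4 mutant libraries H19 was 7.65 and 11.3 times as high as Lsp1.

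All 5 genes had both ZnF4 mutant libraries above both wt libraries, a pattern that 17.8% of the 11345 genes tested showed in that direction, and above both ZnF1 mutant libraries, which 21.7% showed. H19, Mir675 and Tnni2 had both ZnF1 mutant libraries below both wt libraries, against 12.7% of genes. The choice of the genes fixed the first of these counts, and nothing is read from them. A gene entered the tests if it reached 1 RPKM in 2 libraries, which all 5 did; Igf2 reached it in 1 ZnF1 mutant library and both ZnF4 mutant libraries, and the other members in more. The comparisons with wt and with ZnF1 mutant share the ZnF4 mutant libraries. In bulk RNA, a change in how many cells of a culture transcribe a gene and a change in RNA per cell cannot be told apart.

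Markers of other cell types, among them types in which the locus is known to be active, were read in the same libraries. Of 5 hepatocyte markers Alb and Ttr were at 0 in every library, and the sum was 0.1 RPKM in each ZnF4 mutant library and 0.2 to 0.6 in the others. The summed stromal markers were lower in ZnF4 mutant libraries, at 28.5 and 20.1 RPKM, than in wt, at 37.0 and 32.6. Most of that sum was Sparc, Col1a1 and Col1a2. In the group means Cxcl12 went the other way, at 2.55 RPKM in ZnF4 mutant against 1.95 in wt. So did Pdgfrb (0.55 against 0.45) and Postn (0.2 against 0.15), while Col3a1 and Pdgfra were equal. The summed endothelial markers were lower as well (13.3 and 12.4 RPKM over 6 markers, against 19.2 to 28.1). Most of the endothelial sum was Pecam1, which leukocytes also express, at 9.9 and 9.4 RPKM in ZnF4 mutant and 18.6 and 18.3 RPKM in wt libraries. The endothelial cadherin Cdh5 went the other way, at 2.1 and 1.3 RPKM in ZnF4 mutant and at 0 to 0.1 in the other libraries. So did the receptor gene Kdr against wt, at 0.7 and 0.9 RPKM against 0.1 and 0.1, while it was at 1.5 and 1.6 in ZnF1 mutant libraries. The part of these markers in the levels of the locus was not tested. The 7 markers of hematopoietic stem cells summed to 17.0 and 16.1 RPKM in ZnF4 mutant against 1.4 to 6.5 in the others; the receptor gene Kit made up 16.2 and 15.4 RPKM of it, and Mecom and Hlf were at 0 in all libraries. The part of Kit-expressing cells in the levels of H19 and Igf2 was not tested.

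The neighbours of the 5 genes were followed along the chromosome from Ctsd to Phlda2. The annotation of GRCm38.p6, used here for gene order alone, places 35 genes there, of which 26 were found in the table. Of the 26, 14 passed the filter, 11 stayed under 1 RPKM in every library and 5 were at 0 in all of them. Between the pair Tnni2 and Lsp1 and the group H19, Mir675 and Igf2, the genes Gm14492 (now Prr33), Tnnt3 and Mrpl23, a ribosomal protein gene of the mitochondrion, stayed at or below 1.7 RPKM in every library, although both ZnF4 mutant libraries were above the other 4 in Gm14492 (1.7 and 1.5 against 0.5 to 1.0 RPKM) and Tnnt3 (0.6 and 0.6 against 0 to 0.2 RPKM). Nctc1, a noncoding gene next to H19, was at 0. Beyond Igf2, Ins2 (insulin 2) and Th (tyrosine hydroxylase) were at 0 in every library, and Ascl2, an imprinted transcription factor gene, did not pass 0.1 RPKM.

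These neighbours, together with genes somewhat farther out, were tested with limma, a linear model with moderated variances, on log2(RPKM + 1) over all 6 libraries, with p-values adjusted by Benjamini and Hochberg over all 11345 genes and a threshold of 0.05. Libraries of the same replicate number resembled each other across the groups, and where a fit with this number as a block changes a call its adjusted p is given as the blocked value. Of all genes tested, 2.72% changed between ZnF4 mutant and wt (309 genes; 1.43% higher and 1.3% lower), and 15.9% with the block (1809 genes; 8.02% higher and 7.92% lower). Of the 18 neighbours tested, 1 rose and 1 fell (1 and 3 with the block), with a median difference of -0.05 (log2), beside 0.04 over all genes. The one that rose was Igf2as (2.77, SE 0.30, limma adjusted p = 0.021), whose reads may be those of Igf2 and which passed the filter through the ZnF4 mutant libraries alone, so that it had to differ. The one that fell was Tnfrsf26, a gene of the TNF receptor family beyond Phlda2 (-2.87, SE 0.19, limma adjusted p = 0.0067). It was at 0.7 and 1.3 RPKM in ZnF4 mutant against 13.1 and 13.8 in wt and 19.3 and 18.6 in ZnF1 mutant libraries. It thus stood lower in the libraries in which H19 and Igf2 stood higher. With 1 library left out, which lowers the degrees of freedom, 0 of 6 fits kept the call of Igf2as (2.32 to 3.22, adjusted p up to 0.11) and 2 of 6 that of Tnfrsf26 (-3.09 to -2.65, adjusted p up to 0.064; lost without either library of wt or of ZnF4 mutant).

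With the block, Tspan32 and Osbpl5 were added to the neighbours that fell. Tspan32, a hematopoietic tetraspanin gene, was at 25.6 and 23.2 RPKM in ZnF4 mutant and 35.3 and 34.1 in wt libraries (-0.49, SE 0.14, limma adjusted p = 0.21, blocked 0.014). Osbpl5, an oxysterol-binding protein gene, was at 1.3 and 1.5 against 5.2 and 4.2 RPKM (-1.24, SE 0.23, limma adjusted p = 0.066, blocked 0.0098). The abundant neighbours Cd81 and Tssc4 overlapped between the groups, as did Kcnq1ot1, the noncoding RNA of the adjacent imprinted domain, at 0.3 to 2.0 RPKM. Cdkn1c, the imprinted cell cycle inhibitor of that domain, was at 0.4 and 0.1 RPKM in ZnF4 mutant, 0.8 and 0.4 in wt and 2.1 and 1.0 in ZnF1 mutant libraries.

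No gene passed between ZnF1 mutant and wt in this fit (0.0% of genes called by limma, with 0.0923 as the lowest adjusted p and 1281 genes at an unadjusted p under 0.05), whereas 1502 genes, 13.2%, passed with the block (10.4% higher and 2.88% lower). Among the neighbours the block called Ctsd, a lysosomal protease that macrophages hold in quantity, at 540.2 and 448.5 RPKM in ZnF1 mutant against 231.6 and 148.6 in wt (1.40, SE 0.27, limma adjusted p = 0.11, blocked 0.0067), and Cdkn1c (0.65, SE 0.28, adjusted p = 0.51, blocked 0.043). Ctsd moved with the macrophage markers given above, whose part in it was not tested. Between ZnF4 and ZnF1 mutants 5.37% of all genes passed (609, 1.61% higher and 3.75% lower) and 35.1% with the block (3979, 15.9% higher and 19.2% lower). By limma 1 neighbour rose, Igf2as (adjusted p = 0.017). It again had to differ, having passed the filter through the ZnF4 mutant libraries alone, and its reads may be those of Igf2. By limma 2 fell, Tnfrsf26 (-3.33, adjusted p = 0.0075) and Osbpl5 (-1.37, adjusted p = 0.035). With the block 5 fell, which adds Ctsd, Cd81 and Cdkn1c. Of 6 fits without 1 library, 2 kept Igf2as, 3 Tnfrsf26 and 0 Osbpl5.

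**Figure D3:**
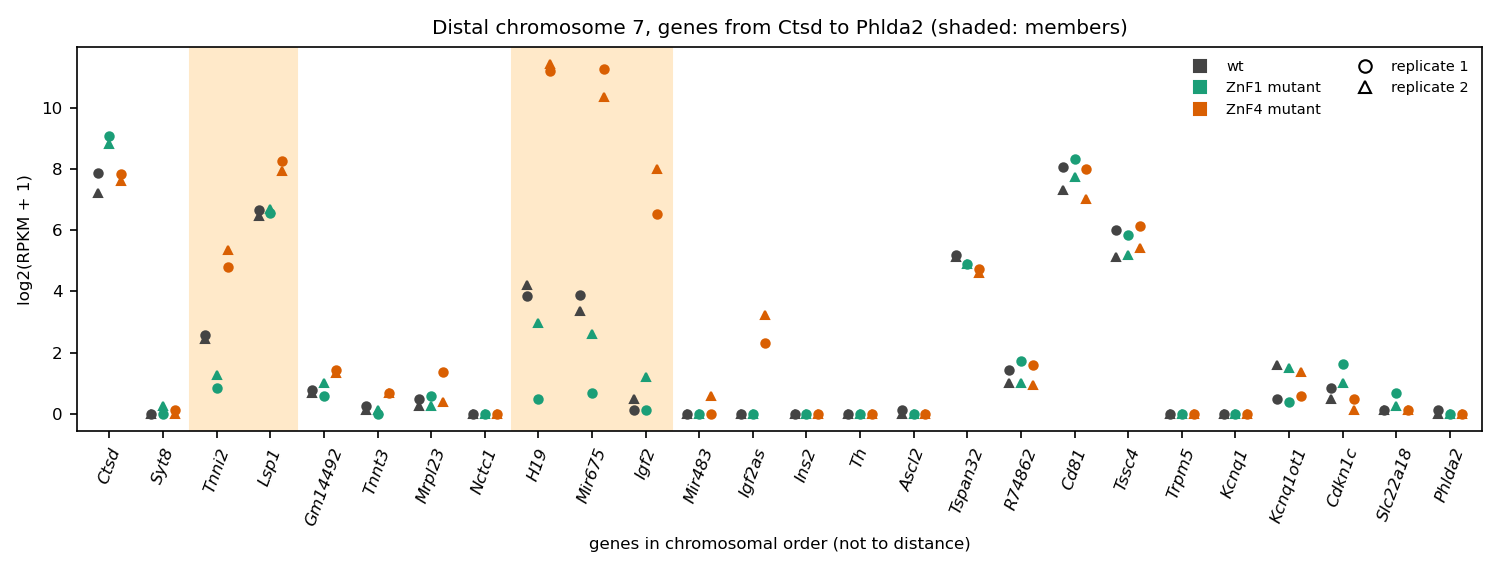
Level as log2(RPKM + 1) of the 26 genes of the table from Ctsd to Phlda2 in chromosomal order, not to distance; colours are the groups, circles and triangles replicates 1 and 2, and shading marks the 5 genes described. H19, Mir675, Igf2, Tnni2, Lsp1 and Igf2as, and at low levels Gm14492 and Tnnt3, stand higher in both ZnF4 mutant libraries than in the other 4, while Ins2, Th, Nctc1, Trpm5 and Kcnq1 are at 0 in all 6.

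Other imprinted genes were examined next, from a list of 67 genes outside the locus of which 64 were found and 30 tested. Of the 64, 30 stayed under 1 RPKM in every library, 11 of them at 0 throughout. Peg3, Rtl1 and Rian were among those at 0, Meg3 and Plagl1 did not pass 0.2 RPKM, and Dlk1, a fetal and progenitor ligand of the Notch family, was listed at 0 in the 4 wt and ZnF1 mutant libraries and at 1.6 and 0.4 RPKM in ZnF4 mutant libraries, below the filter.

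Between ZnF4 mutant and wt, 1 of the 30 rose and 0 fell, with a median of 0.04 (log2), equal to that of all genes. The one was Grb10, an adaptor protein that restrains insulin and IGF receptors, at 15.2 and 16.6 RPKM in ZnF4 mutant against 4.1 and 4.3 in wt and 7.4 and 6.5 in ZnF1 mutant libraries (1.70, SE 0.15, limma adjusted p = 0.011). The call of Grb10 was kept in 1 of 6 fits that each left out 1 library, that without ZnF1 mutant replicate 2, with a difference of 1.64 to 1.76 and an adjusted p of up to 0.12. With the block 4 rose and 3 fell. The added genes were Gab1 (0.91, limma adjusted p = 0.15, blocked 0.043), Gnas (0.50, 0.46 and 0.021) and Mcts2 (0.50, 0.89 and 0.041) on the side that rose, and Igf2r (-0.73, 0.30 and 0.0051), Zrsr1 (-0.59, 0.31 and 0.022) and Herc3 (-0.59, 0.20 and 0.024) on the side that fell. The block thus called 7 of 30, beside 15.9% of all genes.

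Between ZnF1 mutant and wt, 0 of the 30 passed, and 7 rose and 0 fell with the block, of which Ddc (1.11, limma adjusted p = 0.12, blocked 0.0083) and Gab1 (0.98, 0.16 and 0.040) were the farthest from wt. Of all genes, the block called 13.2% in this comparison, 10.4% higher and 2.88% lower. It called 35.1% of all genes between the mutants, 15.9% higher and 19.2% lower. Between ZnF4 and ZnF1 mutants Grb10 rose (1.09, limma adjusted p = 0.027) and Ddc, aromatic amino acid decarboxylase, fell (-1.27, limma adjusted p = 0.045), and with the block 3 rose and 9 fell; neither call was kept in any of 6 fits without 1 library. Ddc stood at 3.1 and 4.0 RPKM in ZnF1 mutant libraries, those with the most macrophage transcripts, and at 0.6 to 1.3 elsewhere. The part of macrophages in the level of Ddc was not tested.

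**Figure D4:**
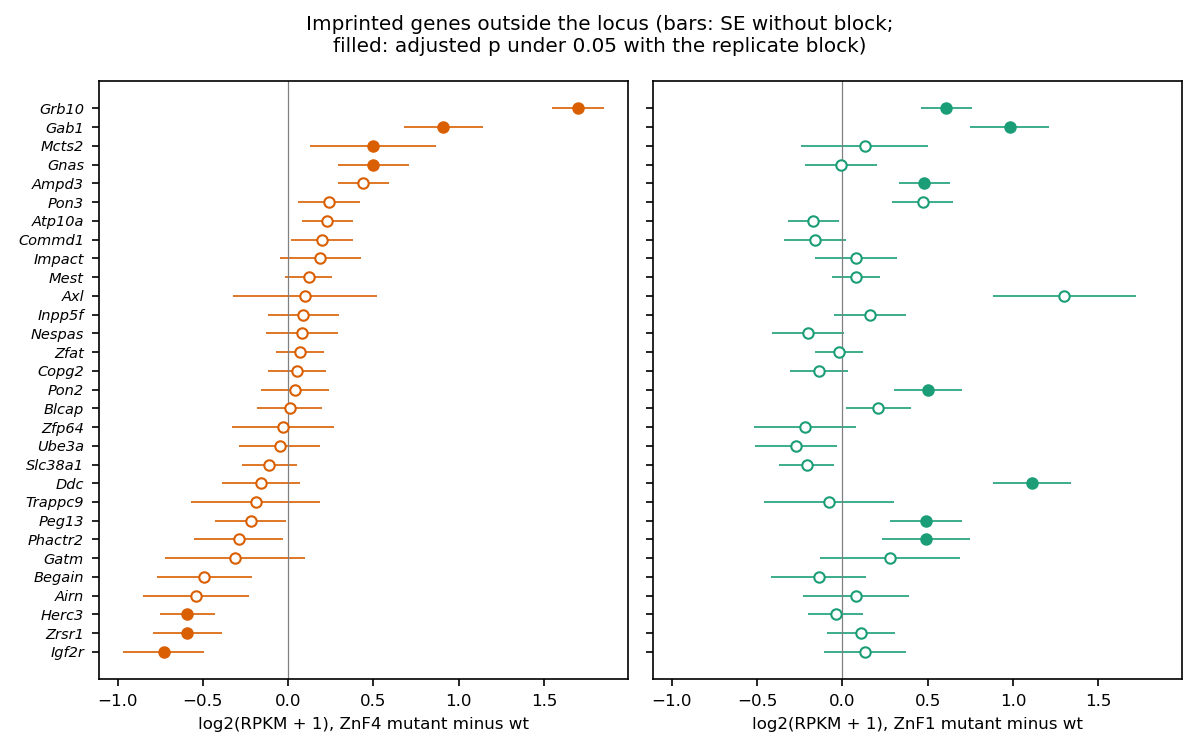
Difference in log2(RPKM + 1) from wt of the 30 imprinted genes outside the locus that were tested, ZnF4 mutant on the left and ZnF1 mutant on the right; bars are the SE of the fit without the block, and filled points have an adjusted p under 0.05 with the replicate block. Grb10 stands at 1.70 in ZnF4 mutant cells, and Igf2r, at -0.73, is at the other end.

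Since Igf2 is a secreted ligand, the genes that receive, bind and relay IGF signals were described from a list of 29, of which 17 were tested. Between ZnF4 mutant and wt 2 rose and 0 fell, with a median of -0.04 (log2). Igfbp4, a secreted protein that binds IGFs, was at 164.9 and 138.4 RPKM in ZnF4 mutant, 50.1 and 37.2 in wt and 81.7 and 66.0 in ZnF1 mutant libraries (1.78, SE 0.22, limma adjusted p = 0.026). The second was Grb10, given above. Of 6 fits without 1 library 0 kept the call of Igfbp4, at differences of 1.57 to 1.99 and an adjusted p of up to 0.19.

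The receptors of Igf2 took opposite directions under the block. Igf1r, the signalling receptor, was at 11.3 and 9.4 RPKM in ZnF4 mutant, 4.1 and 5.0 in wt and 4.7 and 4.1 in ZnF1 mutant libraries (1.03, SE 0.18, limma adjusted p = 0.061, blocked 0.0097). Igf2r, the imprinted receptor that carries Igf2 to lysosomes, was at 6.4 and 8.1 RPKM in ZnF4 mutant, 10.9 and 14.5 in wt and 11.8 and 16.2 in ZnF1 mutant libraries (-0.73, SE 0.24, limma adjusted p = 0.30, blocked 0.0051). Neither passed without the block. The insulin receptor gene Insr was at 5.4 to 7.2 RPKM in all libraries. The block also called 2 genes downstream of the receptors lower, the adaptor Irs2 (-1.19, adjusted p = 0.59, blocked 0.0083) and the transcription factor Foxo3 (-0.52, adjusted p = 0.67, blocked 0.050).

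Igf1, the other ligand, did not follow Igf2. It was at 5.3 and 8.1 RPKM in ZnF4 mutant, 12.4 and 9.6 in wt and 23.8 and 32.9 in ZnF1 mutant libraries. Between ZnF4 and ZnF1 mutants 2 genes of the list rose by limma, Grb10 and Igf1r (1.07, adjusted p = 0.037), and 2 fell, Igf1 (-1.94, adjusted p = 0.027) and the protease Htra1 (-1.32, adjusted p = 0.027); with the block 3 rose and 6 fell. Without 1 library, 1 of 6 fits kept the call of Igf1, that without wt replicate 2, and 0 of 6 kept those of Igf1r, Grb10 and Htra1. Against wt, 0 genes of the list passed in ZnF1 mutant cells, and 5 rose with the block, Igf1 (1.28, blocked adjusted p = 0.027), Irs1, Igfbp4, Htra1 and Grb10. Of all genes, 10.4% rose with the block in this comparison, and between the mutants 15.9% rose and 19.2% fell. Macrophages and stromal cells are known sources of Igf1 and Htra1, and their markers were highest in the same ZnF1 mutant libraries; their part was not tested.

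**Figure D5:**
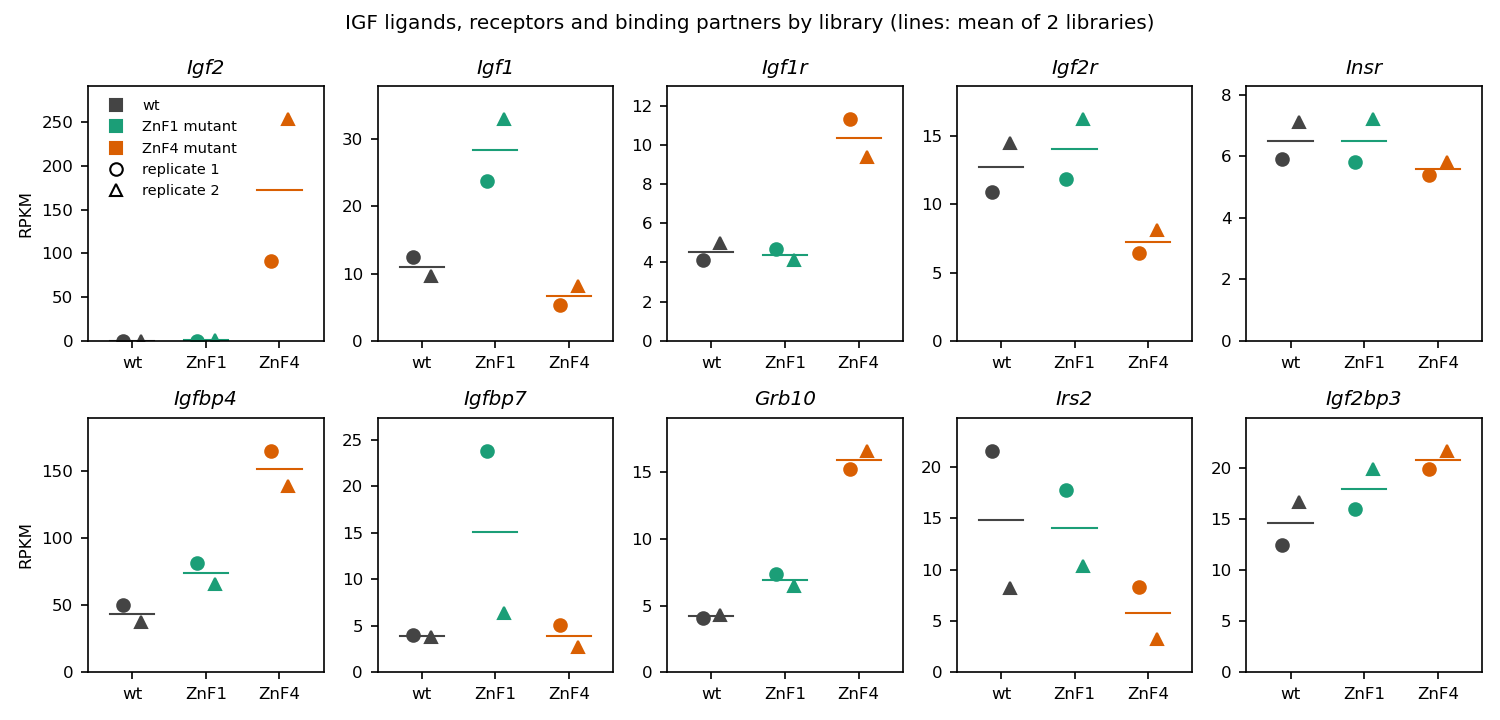
RPKM of Igf2, Igf1, their receptors Igf1r, Igf2r and Insr, the binding proteins Igfbp4 and Igfbp7, the adaptors Grb10 and Irs2, and the RNA-binding protein Igf2bp3 in the 6 libraries, by group, with lines at the group means. Igf2, Igf1r, Igfbp4 and Grb10 are highest in both ZnF4 mutant libraries and Igf1 in both ZnF1 mutant libraries.

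Proteins that act on the imprinting control region or on fetal transcripts were followed in the same fit. Of 27 tested regulators of the control region, among them Ctcf, cohesin genes, Dnmt1, Dnmt3a, Dnmt3b, Tet2 and Tet3, 0 rose and 0 fell between ZnF4 mutant and wt, and 0 and 1 with the block. Ctcf, which binds the control region, was at 109.4 and 124.6 RPKM in ZnF4 mutant and 105.6 and 119.2 in wt libraries. The maintenance methyltransferase gene Dnmt1 was at 184.3 and 183.8 against 164.3 and 161.8 RPKM. The gene called with the block was Tet2, which encodes an enzyme that oxidises methylcytosine, at 5.5 and 6.7 RPKM against 9.9 and 12.5 (-0.78, SE 0.24, limma adjusted p = 0.24, blocked 0.0067). Between ZnF1 mutant and wt 0 passed, and with the block 1 fell, the cohesin gene Stag1 (-0.50, limma adjusted p = 0.72, blocked 0.016). Between the mutants 0 passed by limma, and 6 rose and 1 fell with the block, beside 15.9% and 19.2% of all genes. Trim28, Dnmt1, Dnmt3b, Rad21, Stag1 and Eed rose and Tet2 fell. Of the 27, 23 were higher in ZnF4 than in ZnF1 mutant, with a median of 0.19 (log2) beside 0.04 over all genes. Against wt, 20 of the 27 were higher in ZnF4 mutant, with a median of 0.06 beside 0.04 over all genes. In ZnF1 mutant 23 of the 27 were lower than in wt, with a median of -0.13 beside -0.01 over all genes. Zfp57, which guards methylated imprints in the embryo, did not pass 0.6 RPKM, and Ctcfl, the germ-line relative of Ctcf, was at 0. Methylation of the control region was not measured in these libraries.

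Zhx2, known as a postnatal repressor of H19 and Afp in liver, was at 6.1 and 4.0 RPKM in ZnF4 mutant, 5.0 and 3.7 in wt and 5.9 and 3.6 in ZnF1 mutant libraries, and the groups overlapped. Of the 4 tested genes of its list 0 passed between ZnF4 mutant and wt, and Zhx1 fell with the block (-0.32, adjusted p = 0.86, blocked 0.048), as it did between the mutants (-0.33, adjusted p = 0.55, blocked 0.026). Afp, another gene under Zhx2 in liver, did not pass 0.5 RPKM in any library, and Gpc3 was at 0 in all of them.

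Of 8 tested fetal RNA-binding proteins and growth regulators, 0 passed between ZnF4 mutant and wt, and with the block Igf2bp3, which binds Igf2 transcripts, rose (0.49, SE 0.21, limma adjusted p = 0.46, blocked 0.025) and Arid3a fell (-0.89, SE 0.21, limma adjusted p = 0.13, blocked 0.0064). Igf2bp1 and Lin28b, markers of fetal hematopoiesis, were at 0.1 RPKM or less. Hmga2 was at 0.5 and 0.3 RPKM in ZnF4 mutant, 0.3 and 0.5 in wt and 2.8 and 1.1 in ZnF1 mutant libraries. Hbb-bh1 was at 0.3 and 0.1 RPKM in ZnF4 mutant libraries and at 0 in the others. Igf2bp3, of the same list, was well above 0 in every library. It stood at 19.9 and 21.7 RPKM in ZnF4 mutant, 12.5 and 16.7 in wt and 16.0 and 19.9 in ZnF1 mutant libraries. Of all genes, the block called 15.9% higher and 19.2% lower between the mutants, and 10.4% higher between ZnF1 mutant and wt. Between the mutants Arid3a fell (-1.37, limma adjusted p = 0.031, lost without any 1 library), and with the block 1 rose and 3 fell; between ZnF1 mutant and wt 0 passed, and 2 rose with the block. Of the 11 proteins that bind H19 or process miRNAs, all tested, 0 passed between ZnF4 mutant and wt with or without the block, and the same held between ZnF1 mutant and wt; between the mutants 0 passed by limma, and Dgcr8 (0.26), Xpo5 (0.38) and Hnrnpu (0.49) rose with the block. Between ZnF4 mutant and wt the most abundant, Hnrnpu, differed by 0.09 (adjusted p = 1.0) and the one with the lowest p, the histone methyltransferase Ezh2, by -0.33 (adjusted p = 0.58).

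Of 9 tested genes published as targets of miR-675, 0 passed between ZnF4 mutant and wt, and with the block Igf1r alone, higher as given above. Between ZnF4 and ZnF1 mutants Igf1r rose and the stromal genes Tgfbi (-1.35, adjusted p = 0.032) and Cdh11 (-1.26, adjusted p = 0.028) fell by limma, calls that 0 of 6 fits without 1 library kept; with the block 2 rose and 4 fell. Between ZnF1 mutant and wt 0 passed, and 3 rose with the block. Of all genes, 10.4% rose with the block in this comparison, and between the mutants 15.9% rose and 19.2% fell. Tgfbi was at 17.2 and 12.5 RPKM in ZnF1 mutant against 4.7 to 6.3 in the other libraries, and Cdh11 at 3.0 and 2.2 against 0.4 to 1.0. Stromal markers and macrophage markers were both highest in the same ZnF1 mutant libraries, and the part of either was not tested. Among the troponins and actin-binding relatives of Tnni2 and Lsp1, 7 tested, 0 passed between ZnF4 mutant and wt and Tnnt1, slow troponin T, fell with the block (-0.70, SE 0.15, limma adjusted p = 0.098, blocked 0.019). Between ZnF1 mutant and wt 0 passed, and 1 rose and 1 fell with the block, beside 10.4% and 2.88% of all genes. Of all genes, 3.75% fell between the mutants by limma and 19.2% with the block. Between the mutants 1 fell by limma and 5 with the block; the one was Cald1, a caldesmon gene of stromal and smooth muscle cells, at 2.9 and 2.9 RPKM in ZnF4 mutant, 20.4 and 12.1 in ZnF1 mutant and 3.8 and 6.9 in wt libraries (-2.10, limma adjusted p = 0.034; kept in 2 of 6 fits without 1 library). The leukocyte actin regulators Coro1a and Lcp1 were abundant in every group, and their ZnF4 mutant and wt libraries overlapped, while Lsp1 was higher in ZnF4 mutant libraries.

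Genes whose log2(RPKM + 1) over the 6 libraries ran most like a member's were listed among 620 genes with a range of at least 2 (log2). For H19 these were Ndrg1 (Pearson r = 0.978), Fut10 (0.972), Lyplal1 (0.972), Npr1 (0.971), Tfpi (0.967), Zcchc3 (0.961), Filip1 (0.960), Clec2i (0.959) and Kcnma1 (0.958), with Pard6g (0.954) the tenth named. The values for the other members were 0.994 for Mir675, 0.982 for Tnni2, 0.953 for Igf2 and 0.94 for Lsp1. Ndrg1, a stress-response gene, was at 52.6 and 36.5 RPKM in ZnF4 mutant, 3.6 and 4.0 in wt and 1.9 and 1.9 in ZnF1 mutant libraries. Like H19 and Tnni2 it was lowest in the ZnF1 mutant libraries. Npr1, Filip1 and Kcnma1 passed the filter through the ZnF4 mutant libraries alone, so their likeness to H19 was largely set by the selection.

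For Igf2 the nearest included Igsf10 (0.995), Npr1 (0.992), Tfpi (0.990) and Kcnma1 (0.988), after leaving aside the overlapping Igf2as. Tfpi, an inhibitor of blood coagulation, was at 11.0 and 14.2 RPKM in ZnF4 mutant against 2.7 to 3.8 in the other libraries. For Lsp1 they were Pkdcc (0.995), Hoxb8 (0.994), Nfia (0.993), Nfix (0.993) and Prdm8 (0.992). Hoxb8, a homeobox gene of myeloid and lymphoid progenitors, was listed at 0 in the 4 wt and ZnF1 mutant libraries and at 7.5 and 5.0 RPKM in ZnF4 mutant libraries. These correlations rest on 6 libraries in 3 groups that share replicate numbers. The 2 ZnF4 mutant libraries stood apart from the other 4 in each of the genes whose values are given. Igsf10, Npr1, Kcnma1, Pkdcc, Hoxb8 and Prdm8 passed the filter through the ZnF4 mutant libraries alone. Their likeness to members high in those libraries was therefore largely set by the selection.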

How the data were processed

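The deposited values were RPKM for each RefSeq transcript of 6 libraries, per the file headers. TopHat and bedtools, with no version, and the genome build mm9 are listed in the submitters' processing notes; the assignment of reads to overlapping rows and any use of strand are not given in the sources used here. Of 26532 rows, 1 without a gene was left out, 39 of 40 symbols that had become numbers were restored through their RefSeq identifiers, and rows were summed to 22099 genes. Rows under 120 bases showed no step of whole reads, so depth is unknown and no counting interval is given.

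The 11345 genes that reached 1 RPKM in 2 or more libraries were tested on log2(RPKM + 1) with limma 3.58.1 (R 4.3.3, intensity trend, 3 group means, two-sided, Benjamini-Hochberg adjustment over all genes tested, threshold 0.05), with 3 residual and 2.32 prior degrees of freedom. This scale understates changes of low genes. Each SE is that of the fit. The fit was tested on simulated data. The labels call the replicates biological; p-values measure the spread between 2 libraries a group. The labels number the replicates and do not say what a number marks; deviations of same-numbered libraries correlated at 0.5 (wt and ZnF1 mutant), 0.754 (wt and ZnF4 mutant) and 0.715 (both mutants).

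The 5 members and all gene lists were chosen with earlier results of these data known. Genes were named if they were members, lay between Ctsd and Phlda2, belonged to a list and passed the threshold with or without the block (or had the highest mean or lowest p of a list where none passed), or ranked highest in correlation with H19 (10 genes), Igf2 or Lsp1 (5 each); 1 gene that this rule names is not reported here. Other genes named at or near 0 were picked from the lists after their values were seen. Sequences are those of RefSeq on GRCm38.p6, and the exon and base positions of the hairpin within H19 are those of a GENCODE transcript. Coordinates of the deposited build were not used. Alternatives were the replicate block, a pseudocount of 0.1 RPKM, no filter, a filter at 5 RPKM, quantile normalization, the highest RefSeq row per gene, each library left out, the 4 libraries of 1 comparison, and, added after seeing the data, both libraries with most granulocyte transcripts left out.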

Additional observations from a re-analysis of the deposited data

How the results depend on the processing

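Of 135 alternative values of the 15 differences between groups of the 5 members, 128 moved by less than the spread between replicates, and no difference between groups that did not overlap changed its sign. The others were H19 between ZnF4 mutant and wt with quantile normalization (6.96), Igf2 with a pseudocount of 0.1 RPKM (8.91 against wt and 8.16 against ZnF1 mutant), Tnni2 with the same pseudocount (-2.03 between ZnF1 mutant and wt, 4.82 between the mutants), and, without the 2 libraries rich in granulocyte transcripts, H19 (-3.74) and Igf2 (-0.35) between ZnF1 mutant and wt. The wt and ZnF1 mutant libraries overlap in Igf2. The count of 128 is no measure of stability, because many of these values could not pass the limit. With 2 libraries a group, leaving out either moves a difference by no more than the pooled standard deviation within the groups. The replicate block leaves each difference unchanged. The highest RefSeq row does the same for H19, Mir675 and Tnni2, which have no other row.

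Counts of called genes moved far more. Between ZnF4 mutant and wt the 309 genes became 1809 with the replicate block, 176 with the filter at 5 RPKM, 86 with the 4 libraries of that comparison, 0 to 88 with 1 library left out and 0 without both granulocyte-rich libraries; the count of 0 came without ZnF4 mutant replicate 1. Between ZnF1 mutant and wt the 0 genes became 1502 with the block and stayed at 0 otherwise. Between the mutants the 609 became 3979 with the block, 323 with the filter at 5 RPKM, 234 with 4 libraries, 0 to 262 with 1 library left out and 0 without both granulocyte-rich libraries. Of the imprinted genes outside the locus, 1 between ZnF4 mutant and wt became 7 with the block, 0 with 4 libraries, 0 to 1 with 1 library left out and 0 without both; 0 between ZnF1 mutant and wt became 7 with the block; and 2 between the mutants became 12 with the block, 1 with a pseudocount of 0.1 RPKM, with the filter at 5 RPKM or with quantile normalization, and 0 with 4 libraries, with any 1 library or with both left out. A fit without 1 library has 2 residual degrees of freedom and assumes that the lone library of a group varies like the others; the fit without both has 1. The cause of the other moves was not tested. Rounding to 0.1 RPKM limits Igf2 in wt and ZnF1 mutant libraries.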
